A study of Saccharomyces cerevisiae with 16 samples.

Results

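The genes described are the 6 that handle biotin in budding yeast and carry a named probe: BIO3, BIO4 and BIO2 for its synthesis, BIO5 and VHT1 for uptake, and BPL1 for its attachment to proteins. They were taken by gene symbol, and each has 1 probe among the 6388 gene probes of the array. The set was chosen by the same log2 ratios of strain over reference that are given below, in all 8 strains, so the values of these genes are a description, without tests. Biotin is the cofactor of carboxylases, which carry it on a lysine and use it to move carbon dioxide. Laboratory budding yeast lacks the first steps of the pathway, so it grows on biotin from the medium or on a late precursor, and genes for uptake and the late steps are known to be switched on when biotin is scarce. In that late pathway BIO3 makes diaminopelargonate with S-adenosylmethionine as amino donor, BIO4 closes it to dethiobiotin, and BIO2, an iron-sulfur enzyme, adds the sulfur.

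RNA was measured on 16 spotted 2-colour arrays, 2 for each of 8 strains grown to mid-log phase, each strain against a common pool of unstated genotype. FCP1 encodes a phosphatase that acts on the tail of RNA polymerase II, and CDK8 (SSN3) encodes the kinase of the Mediator complex. The double mutants joined cdk8-del to the FCP1 truncations 1:666, 1:609 or 1:594, and the single mutants carried those truncations alone. The other strains were fcp1-mut, whose change is not stated, and the truncation 1:713. Every FCP1 allele was labelled as carrying a tag-flag, and no treatment was named. No strain here carries cdk8-del without one of these 3 truncations, so cdk8-del is compared only within them. Array a of a strain had its RNA in Cy3 and array b in Cy5. Nothing says whether both arrays of a strain had separate cultures, so standard errors (SE) and p-values measure the spread between arrays. Without a term for the letter, that spread includes any offset between arrays a and b, which differ in dye orientation.

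The labels were checked on SSN3 and FCP1 and on 2 marker genes. On all 6 cdk8-del arrays the SSN3 probe failed to rise above background. FCP1 signal was between -3.49 and -2.77 (log2 strain over reference) in the 4 strains with 1:609 or 1:594 and between -0.31 and -0.20 in the others. A pair of the double mutants also differed from their single mutants in a marker. MET17, needed for methionine synthesis, averaged -0.06 in 1:666 cdk8-del. It averaged -0.44 in 1:594 cdk8-del, and between -4.91 and -4.51 in the other 6 strains. LYS2, of lysine synthesis, was between 2.73 and 3.40 in the 4 strains with 1:609 or 1:594 and near 0 elsewhere. In the 1:609 pair MET17 was low in both strains, at -4.64 in 1:609 cdk8-del and -4.91 in 1:609. The part of these marker differences in the values below was not tested. Spot signal was well above background: the 6 biotin genes were above it in both channels on 16 of 16 arrays. All values are log2 ratios relative to the typical gene of the array, mean ± SE over n = 2 arrays per strain, and a gene is called at an adjusted p under 0.01 with a fold above 1.7.

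In all 3 truncations, RNA of BIO2, BIO3, BIO4 and BIO5 was 2.33 to 3.52 fold lower in the double mutant than in the single mutant, and VHT1 was 1.91 to 2.15 fold lower. For these 5 genes each of the 6 double-mutant arrays lay below each of the 10 arrays of strains with CDK8, which was the case for 3.21% of all probes. BPL1 was the exception, with smaller differences and arrays that overlap. The difference between the lowest array with CDK8 and the highest double-mutant array ranked BIO3 at 2, BIO2 at 3, BIO5 at 6, VHT1 at 10 and BIO4 at 14 among 6388 probes, and BPL1 at 294. The genes were chosen on these same values, so nothing is read from the ranks or from the lack of overlap.

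**Figure D1:**
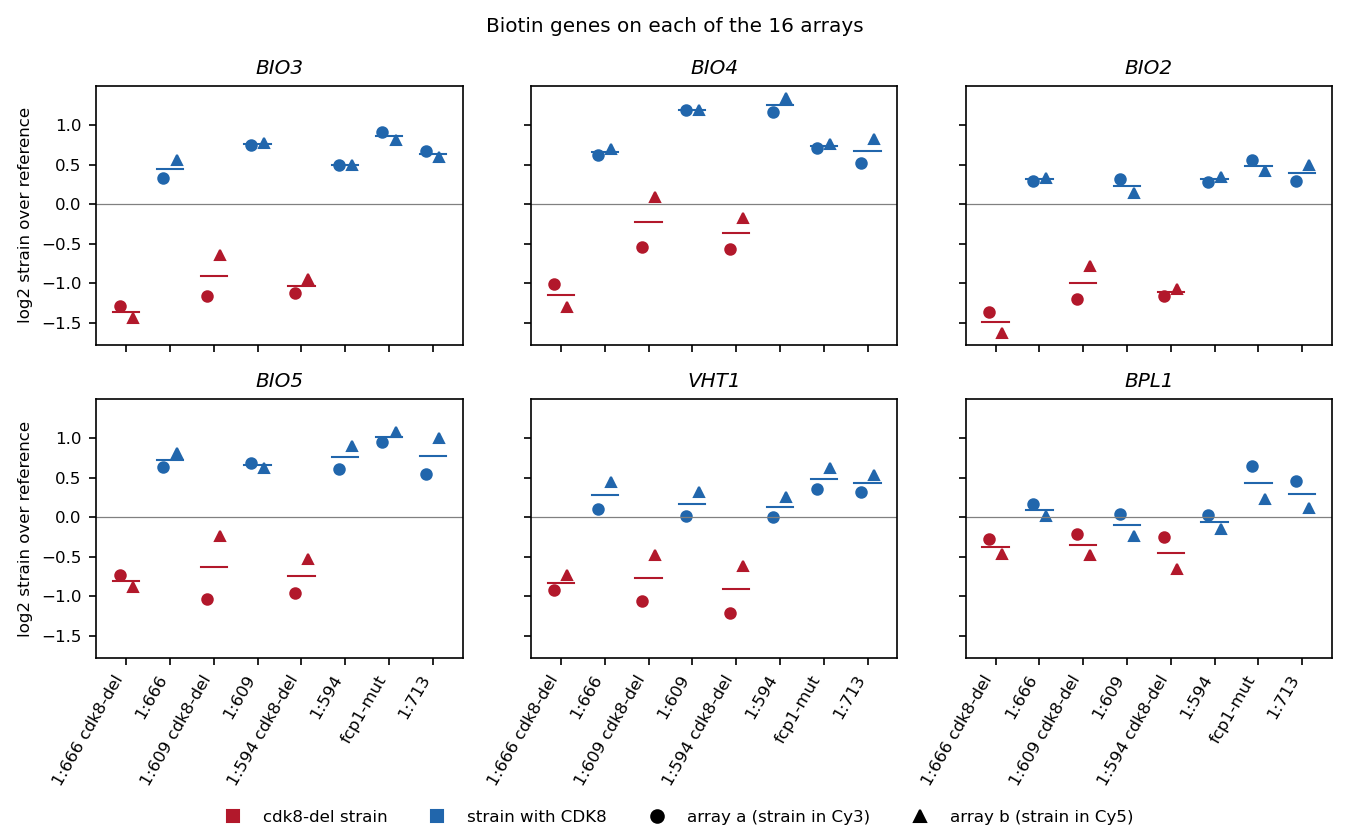
Log2 strain over reference (y) of the 6 biotin genes in 8 strains (x), 1 panel a gene, with circles for array a, triangles for array b and a bar at the strain mean. The red double-mutant points of BIO3, BIO4, BIO2, BIO5 and VHT1 lie below every blue point of the strains with CDK8, while those of BPL1 overlap them.

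Among the enzymes, BIO3 had on arrays a and b -1.29 and -1.45 in 1:666 cdk8-del, against 0.34 and 0.56 in 1:666. It had -1.17 and -0.64 in 1:609 cdk8-del, against 0.75 and 0.78 in 1:609. It had -1.12 and -0.95 in 1:594 cdk8-del, against 0.50 and 0.50 in 1:594. All double-mutant arrays were thus below the reference pool and all single-mutant arrays above it. The differences were -1.82 ± 0.15, -1.67 ± 0.15 and -1.53 ± 0.15 in 1:666, 1:609 and 1:594.

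BIO4 had -1.01 and -1.30 in 1:666 cdk8-del, against 0.63 and 0.70 in 1:666. In 1:609 cdk8-del it had -0.54 and 0.09, against 1.19 and 1.19 in 1:609. In 1:594 cdk8-del it had -0.57 and -0.17, against 1.17 and 1.35 in 1:594. The arrays of 1:609 cdk8-del lay on either side of the pool's level, those of the other double mutants below it. The differences were -1.81 ± 0.20, -1.42 ± 0.20 and -1.63 ± 0.20.

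BIO2, the biotin synthase gene, had -1.36 and -1.63 in 1:666 cdk8-del, against 0.30 and 0.34 in 1:666. It had -1.20 and -0.78 in 1:609 cdk8-del, against 0.32 and 0.14 in 1:609. It had -1.16 and -1.07 in 1:594 cdk8-del, against 0.29 and 0.35 in 1:594. The groups were far apart, and of the 6 genes BIO2 was the one whose double-mutant levels lay farthest below the pool. The differences were -1.81 ± 0.14, -1.22 ± 0.14 and -1.43 ± 0.14.

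For uptake, BIO5, which encodes the carrier of a biotin precursor, had -0.73 and -0.88 in 1:666 cdk8-del, against 0.64 and 0.82 in 1:666. It had -1.03 and -0.23 in 1:609 cdk8-del, against 0.69 and 0.63 in 1:609. It had -0.95 and -0.52 in 1:594 cdk8-del, against 0.62 and 0.91 in 1:594. The arrays of 1:609 cdk8-del were 0.80 apart, the widest pair of any biotin gene and strain, and still both were below the single mutant. The differences were -1.53 ± 0.24, -1.29 ± 0.24 and -1.50 ± 0.24.

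VHT1, which encodes the plasma membrane biotin-proton symporter, had -0.92 and -0.73 in 1:666 cdk8-del, against 0.11 and 0.45 in 1:666. It had -1.06 and -0.47 in 1:609 cdk8-del, against 0.01 and 0.32 in 1:609. It had -1.21 and -0.61 in 1:594 cdk8-del, against 0.0013 and 0.25 in 1:594. The double mutants were lower on every array, by less than for the BIO genes, at -1.10 ± 0.24, -0.94 ± 0.24 and -1.04 ± 0.24. The b array read higher than the a array in 8 of 8 strains for VHT1, so the letter, which is also the dye orientation, moved with the values, and the fit with the letter as a block takes that offset out.

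BPL1 encodes the biotin-protein ligase, which attaches the cofactor. It had -0.27 and -0.47 in 1:666 cdk8-del, against 0.17 and 0.01 in 1:666. In 1:609 cdk8-del it had -0.21 and -0.48, against 0.04 and -0.24 in 1:609, where the arrays overlap. In 1:594 cdk8-del it had -0.25 and -0.65, against 0.03 and -0.15 in 1:594. The differences were -0.46 ± 0.19, -0.25 ± 0.19 and -0.39 ± 0.19. The a array read higher than the b array in 8 of 8 strains for BPL1.

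**Figure D2:**
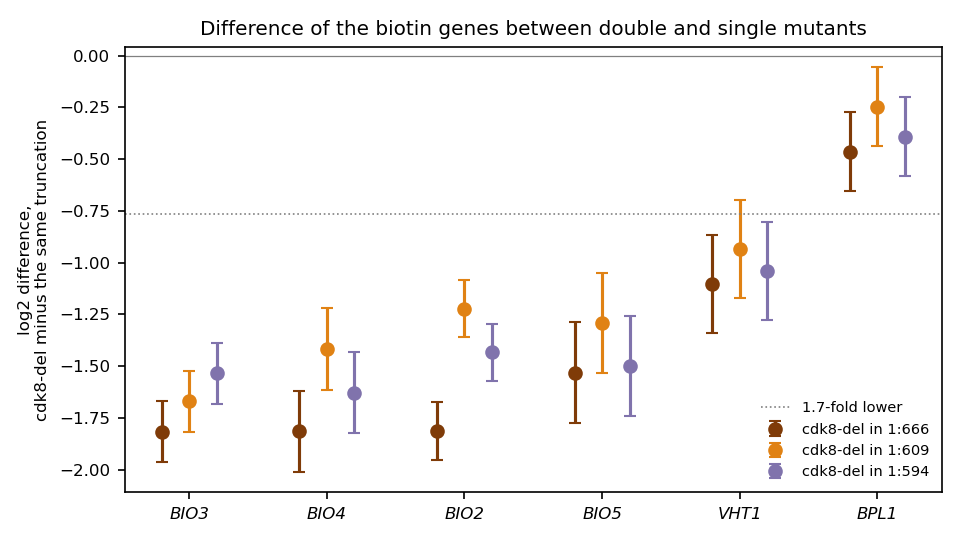
Log2 difference of double mutant minus single mutant (y) for the 6 biotin genes (x) in the truncations 1:666, 1:609 and 1:594, with bars of 1 SE from limma (n = 2 arrays a strain) and a dotted line at 1.7-fold lower. All 18 differences are below 0, those of the BIO genes and VHT1 also below the dotted line.

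Counted by the call rule, 5 of 6 biotin genes were called lower with cdk8-del in 1:666, 4 in 1:609 and 4 in 1:594, where 0.704%, 0.266% and 0.47% of all probes were. These genes were picked for this pattern, so nothing is read from those counts. The 5 in 1:666 were the BIO genes and VHT1, and the 4 in each of the others were the BIO genes. When the letter was a block in the fit, VHT1 was called in 1:609 and 1:594 too, which made 15 of 18 values called in place of 13. Calls in either direction over all 6388 probes also rose with the block. They went from 253 to 278 in 1:666, from 104 to 168 in 1:609 and from 134 to 177 in 1:594. The median of the 6 genes was -1.67, -1.26 and -1.47 in 1:666, 1:609 and 1:594, while the median of all probes was between -0.0043 and -0.0029. The cdk8-del differences themselves were compared between truncations. For the 6 genes they moved by 0.15 to 0.59 for 1:609 less 1:666, by 0.03 to 0.38 for 1:594 less 1:666 and by -0.21 to 0.14 for 1:594 less 1:609, and none was called.

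Leaving out 1 array at a time kept every difference of the 6 genes below 0 and moved some calls. BIO2 and BIO3 lost no cdk8-del call. BIO4 lost its call in 1:609 without array a of 1:609 cdk8-del (-1.10) and without either array of 1:609 (-1.42 in both cases). BIO5 lost its call in 1:594 without array a of 1:594 cdk8-del (-1.28) or either array of 1:594 (-1.65 and -1.35). In 1:666 BIO5 lost it without either array of 1:666 cdk8-del (-1.60 and -1.46) or array b of 1:666 (-1.44). BIO5 in 1:609 was -0.89 without array a of 1:609 cdk8-del and -1.69 without array b, and it was called under 9 of 23 alternatives. VHT1 in 1:666 was called under 8 of 23 alternatives, and lay at -1.27 without array a of 1:666 and at -0.94 without array b.

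Against the reference pool, the BIO genes and VHT1 were above it on all 10 arrays of strains with CDK8, and the means of all 6 genes were below it in the double mutants. BPL1 was above it on 8 of those 10 arrays, with means of -0.10 in 1:609 and -0.06 in 1:594. The lowest array value of the BIO genes and VHT1 in strains with CDK8 was 0.0013, for VHT1. The genes were chosen on these values and the shares of all probes are not given here, so nothing is read from these array counts. The pool's RNA was isolated by another protocol and its genotype is unstated, so allele, strain background and isolation cannot be told apart in these levels. The levels are relative to the typical gene and depend on the scaling. With external control spots 46 of 48 moved, BIO3 in fcp1-mut to 0.10 from 0.86 and BIO4 in 1:609 to 0.62 from 1.19. The typical gene was then between -0.74 and -0.56 against the pool in the strains with CDK8. The median of the 6 genes was 0.62 in fcp1-mut, 0.53 in 1:713, 0.38 in 1:666, 0.44 in 1:609 and 0.41 in 1:594. It was -0.99 in 1:666 cdk8-del, -0.70 in 1:609 cdk8-del and -0.82 in 1:594 cdk8-del. In 1:666 cdk8-del 5 genes were called lower, where 0.939% of all probes were. In 1:609 cdk8-del BIO2 and BIO3 were, against 1.89% of all probes, and in 1:594 cdk8-del BIO2, BIO3 and VHT1 were, against 2% of all probes. Called higher were BIO3 in fcp1-mut (0.125% of all probes), BIO4 in 1:609 (0.72%) and BIO4 in 1:594 (0.657%). No biotin gene was called in 1:713 or 1:666, where 0.172% and 0.626% of all probes were called in either direction. When the letter was a block, BIO5 was called higher too in fcp1-mut and in 1:713, where 0.0626% of all probes were called higher without the block. With the block 23 of 6388 probes in fcp1-mut and 18 in 1:713 were called in either direction, in place of 15 and 11. Without array a, BIO3 in 1:609 cdk8-del was at -0.64 and VHT1 in 1:594 cdk8-del at -0.61, and neither was called. BIO3 in fcp1-mut was not called without array a (0.81) or array b (0.91), at values past the fold limit. In 1:666 cdk8-del, BIO5 was not called without array a (-0.88) or array b (-0.73), nor was VHT1 (-0.73 and -0.92).

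fcp1-mut held the highest level of 5 of the 6 genes. BIO3 had 0.91 and 0.81 there, BIO5 had 0.95 and 1.08, and BIO4 had 0.72 and 0.77. BIO2 had 0.56 and 0.43, VHT1 had 0.35 and 0.63, and BPL1 had 0.65 and 0.23. For BIO4 the highest levels were instead in 1:594 and 1:609.

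Ordered by strain mean, every one of the 6 genes had the 3 double mutants lowest. For BIO5 and VHT1 the arrays of strains next to each other in that order overlapped everywhere except between the double mutants and the strains with CDK8, a step of 1.29 for BIO5 and 0.89 for VHT1. For BIO2 and BIO3 the arrays of 1:666 cdk8-del also lay apart from those of the next strain, at means of -1.50 for BIO2 and -1.37 for BIO3, followed by 1:594 cdk8-del at -1.12 and -1.03. Among the strains with CDK8, neighbours in the order overlapped for BIO2. For BIO3 the arrays of 1:594, 1:713, 1:609 and fcp1-mut did not overlap, at means of 0.50, 0.63, 0.77 and 0.86. These steps of 0.13, 0.13 and 0.10 were smaller than the SE of 0.15 for BIO3 in 1:609 over 1:713. Of all probes, 24% had both 1:594 arrays below both of 1:713, and 23.6% had both 1:609 arrays above them. The shares of all probes for the other steps are not given here.

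BIO4 was lowest in 1:666 cdk8-del at -1.15, followed by 1:594 cdk8-del at -0.37 and 1:609 cdk8-del at -0.23, whose arrays overlapped. The strains 1:666, 1:713 and fcp1-mut followed at 0.66, 0.67 and 0.74 with arrays that overlapped, and 1:609 and 1:594 were highest at 1.19 and 1.26. For BPL1, whose strain means spanned 0.89, the arrays of neighbours in the order overlapped throughout.

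The shorter truncations were set against 1:713, the longest, without cdk8-del in either strain. No biotin gene was called in 1:666, 1:609 or 1:594 over 1:713, where 0.047%, 1.97% and 1.27% of all probes were. BIO4 is given in full, since its values lay farthest above those of 1:713. BIO4 had 1.19 and 1.19 in 1:609 and 1.17 and 1.35 in 1:594, against 0.53 and 0.82 in 1:713. Both shorter truncations were above 1:713 on each array, as were 23.6% of all probes in 1:609 and 23.4% in 1:594. The differences were 0.52 ± 0.20 and 0.59 ± 0.20. In 1:666 BIO4 differed from 1:713 by -0.01 ± 0.20. The other 5 genes differed from 1:713 by -0.39 to 0.13, and the medians over the 6 genes were -0.12, -0.14 and -0.11 in 1:666, 1:609 and 1:594. VHT1 and BPL1 lay below 1:713 on both arrays in 1:609 and in 1:594, at -0.26 ± 0.24 and -0.30 ± 0.24 for VHT1 and -0.39 ± 0.19 and -0.35 ± 0.19 for BPL1. Arrays that do not overlap in that direction were found for 25.8% and 24% of all probes in these comparisons.

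Among themselves the genes moved together over the 8 strain means, with Pearson r from 0.65 for BIO4 and BPL1 to 0.99 for BIO2 and BIO5. These 15 correlations are a description over 8 strains that share the reference pool, for genes chosen on these same values. The strain means of BIO4 spanned 2.41 over all 8 strains and 0.60 within the 5 with CDK8, and those of BIO2 1.99 and 0.26. Within the 5 strains with CDK8, r of BIO4 was -0.62 with BIO2, -0.42 with BIO5, -0.83 with VHT1 and -0.78 with BPL1, and -0.008 with its chromosomal neighbour BIO3. VHT1 and BPL1 had an r of 0.98 there. Within the 3 double mutants r ran from -0.14 for BIO4 and BPL1 to 0.9992 for BIO2 and BIO3, and was 0.14 for BIO2 and VHT1.

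The genes most like each biotin gene were looked up by Pearson r over the 8 strain means. Candidates were named genes whose means spanned at least 50% of that gene's own span, and BPL1, with a span under 1, was left out. An r over 0.9 was found for 15 of 301 candidates for BIO2, 9 of 223 for BIO3 and 5 of 195 for BIO4. For BIO5 it was 23 of 372 and for VHT1 41 of 683, and only the nearest 5 of each are named. For BIO2 and BIO3 the nearest were AIF1, named for a mitochondrial cell death effector (r of 0.99 and 0.98), and URA1, which encodes dihydroorotate dehydrogenase (0.98 and 0.98). URA1 was also nearest to BIO5 (0.98) and to VHT1 (0.99), followed by GND1, which encodes 6-phosphogluconate dehydrogenase (0.98 and 0.99). AAD10 and AAD15, of the aryl-alcohol dehydrogenase family, were near BIO2 and BIO3, and AAD10, YJR154W and, for VHT1, the IMP dehydrogenase gene IMD3 completed the lists. AAD10 and AAD15 belong to a family of near-identical copies, so their probes may read each other's RNA. SSN3 itself was among the 5 nearest to BIO5 (0.97), with double-mutant levels that were not above background.

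BIO4 had another set. Nearest were NCE103, which encodes carbonic anhydrase (0.97), SIP5 (0.93), PYC1 (0.93), DLD3, which encodes a D-lactate dehydrogenase (0.93), and YNL134C (0.92). NCE103 averaged 0.10, 0.58 and 0.72 in the double mutants with 1:666, 1:609 and 1:594, against 2.23, 2.70 and 2.48 in their single mutants. URA1 was at -0.17 in 1:594, -0.06 in 1:609 and 0.15 in 1:713. NCE103, SIP5 and PYC1 were at higher means in 1:609 and 1:594 than in 1:713, as BIO4 was. They were picked by their likeness to BIO4 over these same means, so nothing is read from that shared order. Of all probes, 14 (0.219%) were called lower with cdk8-del in all 3 truncations. They held the 4 BIO genes, NCE103, PYC1, SIP5 and DLD3 of the genes like BIO4, AAD10, YJR154W and SSN3 of the genes like the others, ADE17 of adenine synthesis, and a pair of probes without a name here.

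**Figure D3:**
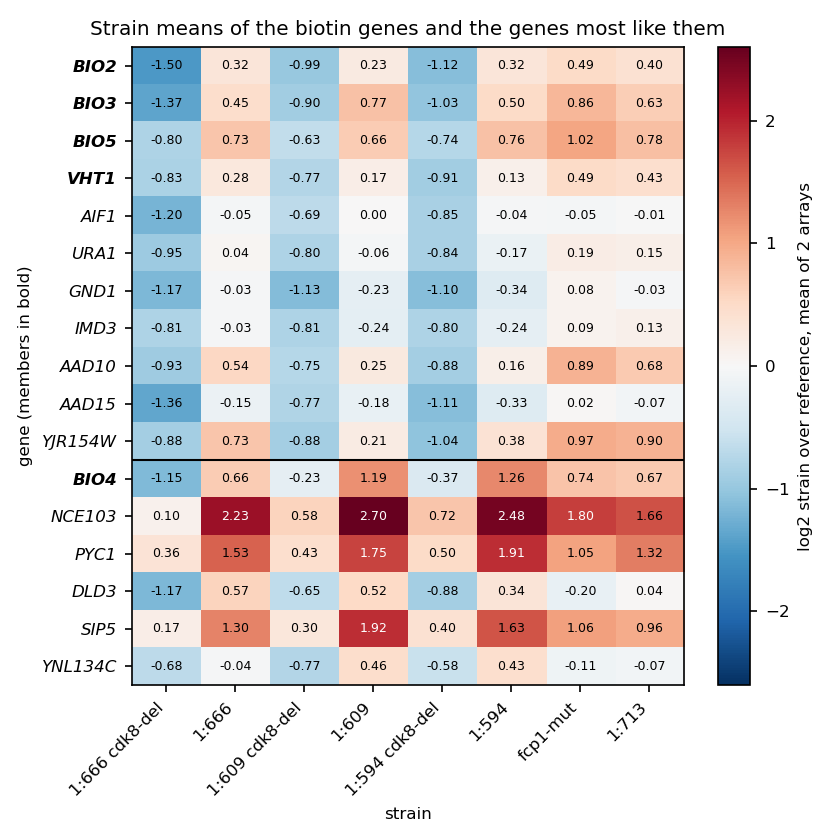
Strain means of log2 strain over reference (colour and number, n = 2 arrays) in 8 strains (columns) for 5 biotin genes in bold and the genes most like them (rows). Above the line are BIO2, BIO3, BIO5 and VHT1 with AIF1, URA1, GND1, IMD3, AAD10, AAD15 and YJR154W; below it BIO4, with its highest values in 1:609 and 1:594, stands with NCE103, PYC1, DLD3, SIP5 and YNL134C.

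The proteins that carry biotin were examined next, with 5 of 6 genes on the array. The rule for the members did not use these genes or the lists that follow, but the lists were chosen with earlier results of these data known. PYC1 was also named above by its likeness to BIO4, so its p-values are not separate support. For list genes limma's adjusted p over all probes is given. PYC1, which encodes a pyruvate carboxylase, was called lower with cdk8-del in all 3 truncations. It had 0.43 and 0.29 in 1:666 cdk8-del, against 1.61 and 1.45 in 1:666. It had 0.54 and 0.32 in 1:609 cdk8-del, against 1.82 and 1.69 in 1:609. It had 0.65 and 0.34 in 1:594 cdk8-del, against 2.04 and 1.78 in 1:594. PYC1 fell by 1.17 ± 0.15 (adjusted p = 0.000323), 1.32 ± 0.15 (adjusted p = 0.000369) and 1.42 ± 0.15 (adjusted p = 0.000195) in 1:666, 1:609 and 1:594. Scaled on the external control spots it was not called in 1:666 (-1.01, adjusted p = 0.0115) or in 1:609 (-0.97, adjusted p = 0.02).

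PYC1 was above the pool in the strains with CDK8, at 1.05 ± 0.11 in fcp1-mut and 1.32 ± 0.11 in 1:713, and called there. Its isozyme gene PYC2 was not called with cdk8-del, at -0.11, -0.05 and -0.08 (adjusted p = 0.578, 0.906 and 0.76). ACC1, which encodes the cytosolic acetyl-CoA carboxylase, was at -0.45, -0.52 and -0.37 and was not called (adjusted p = 0.0986, 0.0918 and 0.22). ARC1, a transfer RNA synthetase cofactor that also carries biotin, was at -0.46, -0.42 and -0.17, under the fold limit. HFA1, for the mitochondrial acetyl-CoA carboxylase, was at -0.17, -0.10 and -0.07. The median of the 5 genes was -0.45, -0.42 and -0.17 with cdk8-del in 1:666, 1:609 and 1:594.

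Over 1:713 no gene of this list was called, where 0.047%, 1.97% and 1.27% of all probes were in 1:666, 1:609 and 1:594. PYC1 was at 0.43 ± 0.15 and 0.59 ± 0.15 in 1:609 and 1:594 (adjusted p = 0.0721 and 0.026). PYC2 was at -0.65 and -0.57 (adjusted p = 0.00127 and 0.00399) and ARC1 at 0.63 and 0.37 (adjusted p = 0.00125 and 0.0276), under the fold limit. At an unadjusted p under 0.05, 2 genes were lower and 2 higher in each of 1:609 and 1:594, and 0 in 1:666. Of all probes, 29.2%, 25.3% and 9.49% passed that limit in 1:609, 1:594 and 1:666 over 1:713.

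**Figure D4:**
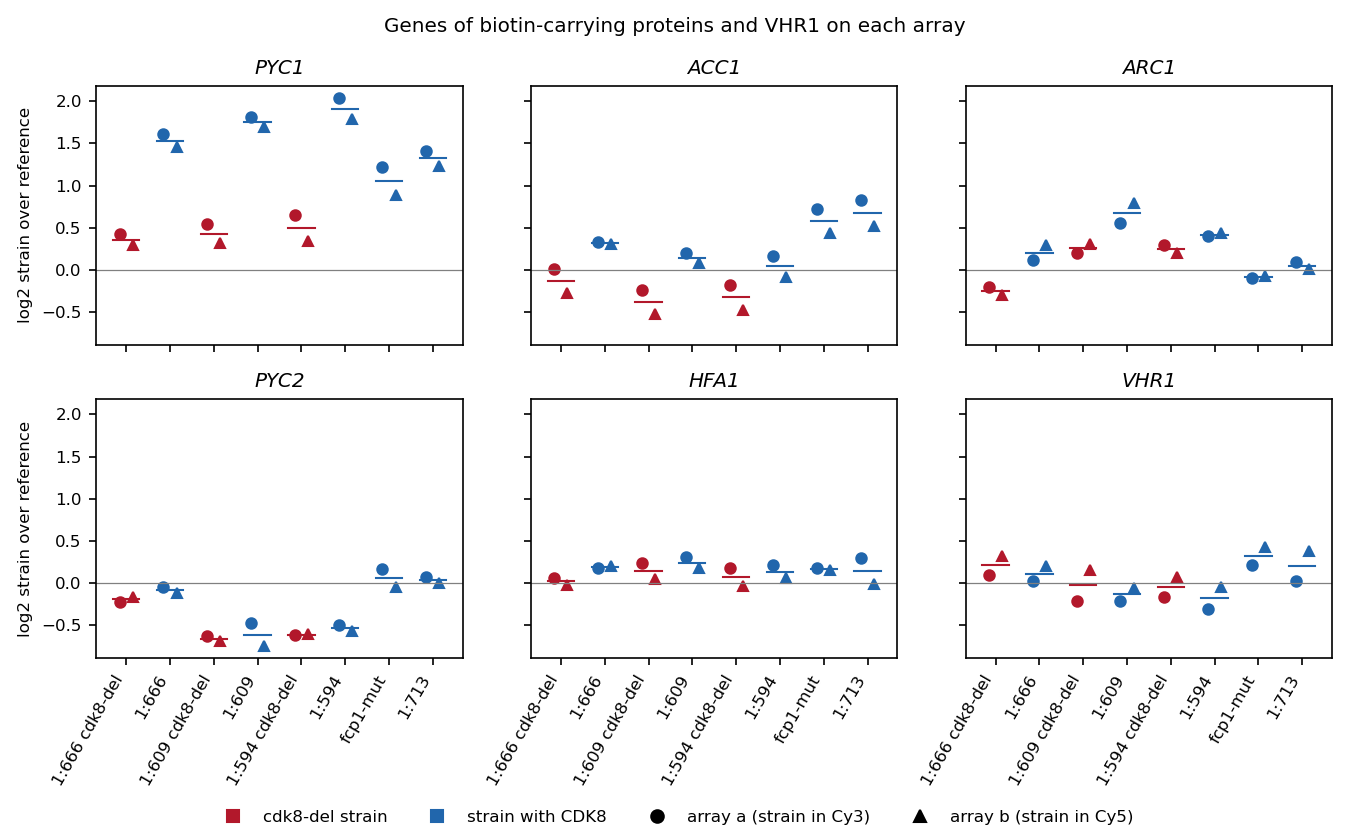
Log2 strain over reference (y) of PYC1, ACC1, ARC1, PYC2, HFA1 and the regulator gene VHR1 in 8 strains (x), with circles for array a, triangles for array b and a bar at the strain mean. The red double-mutant points of PYC1 lie between 0.29 and 0.65, below all blue points of the strains with CDK8, whereas VHR1 points of both kinds intermingle.

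VHR1 encodes a transcription factor known to activate VHT1 and BIO5 when biotin is low. Its RNA was not called in any comparison. With cdk8-del it was at 0.10 ± 0.17, 0.11 ± 0.17 and 0.13 ± 0.17 in 1:666, 1:609 and 1:594 (adjusted p = 0.818, 0.852 and 0.788). It had 0.10 and 0.32 in 1:666 cdk8-del, against 0.02 and 0.20 in 1:666. Over 1:713 it was at -0.09, -0.33 and -0.37.

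Iron is needed for the iron-sulfur clusters of biotin synthase, and BIO2 and VHT1 are known to respond to iron in yeast. Of 30 iron regulon genes, 0 were called with cdk8-del in any truncation, where 104 to 253 of 6388 probes were. At an unadjusted p under 0.05, limma gave 6 higher and 2 lower in 1:666, 7 and 0 in 1:609, and 3 and 5 in 1:594. Of all probes, 25.8%, 18.9% and 21.4% passed that limit with cdk8-del in 1:666, 1:609 and 1:594, so the shares of the iron genes were near those of all probes. When the letter was a block, 1 was called higher in each: FIT2 in 1:666 and FRE1, a ferric reductase gene, in 1:609 and 1:594. With the block 278, 168 and 177 of 6388 probes were called in either direction in 1:666, 1:609 and 1:594. FIT2, for a cell wall protein that holds siderophore iron, was at 1.09 ± 0.27 in 1:666, and FRE1 was at 1.46 ± 0.30 in 1:609 and 1.02 ± 0.30 in 1:594. The list medians were 0.07, 0.05 and -0.0033.

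Over 1:713, ATX1, a copper chaperone gene, fell by 1.0 ± 0.13 in 1:609 (adjusted p = 0.000509) and by 1.06 ± 0.13 in 1:594 (adjusted p = 0.000465). ENB1, a siderophore transporter gene, fell by 0.83 ± 0.11 (adjusted p = 0.000668) and 0.79 ± 0.11 (adjusted p = 0.00125). Each was lower on 2 of 2 arrays, as were 25.8% of all probes in 1:609 and 24% in 1:594. Neither was called with median centring or external control scaling. ENB1 also lost its call without array a of 1:609 (-0.65 in 1:609), and in 1:594 without array b of 1:713 (-0.73) or either array of 1:594 (-0.78 and -0.80) and under print-tip scaling (-0.76). With the block 183 and 104 of 6388 probes were called in 1:609 and 1:594, in place of 126 and 81. Of the iron genes, 5 were called in 1:609 and 4 in 1:594 with the block, in place of 2 and 2. Beside ATX1 and ENB1 these were FIT3 (1.13 in 1:609 and 0.86 in 1:594) and FRE1 (-0.93 and -0.95) in both, and FIT2 (0.80) in 1:609. Of 16 genes of iron-sulfur cluster assembly 0 were called over 1:713 or with cdk8-del, where 3 to 126 and 104 to 253 of 6388 probes were. At an unadjusted p under 0.05 there were 1 lower and 2 higher with cdk8-del in 1:666, and 2 lower in each of 1:609 and 1:594, out of 16 genes and beside the 25.8%, 18.9% and 21.4% of all probes. Over 1:713 there were 0 in 1:666, 1 lower and 3 higher in 1:609, and 2 lower and 4 higher in 1:594, beside 9.49%, 29.2% and 25.3% of all probes. YAH1, the mitochondrial ferredoxin gene, was at -0.59, -0.26 and -0.43 with cdk8-del in 1:666, 1:609 and 1:594, under the fold limit.

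S-adenosylmethionine is used by both BIO3 and BIO2 enzymes. SAM3, which encodes its plasma membrane carrier, had -0.80 and -0.80 in 1:666 cdk8-del, against 0.19 and 0.11 in 1:666. It fell by 0.96 ± 0.06 (adjusted p = 3.91e-06). This was the 1 call of double against single mutant among 4 genes of S-adenosylmethionine synthesis and uptake. Of all probes, 0.704% were called lower with cdk8-del in 1:666. SAM3 was not called with median centring (-1.03, adjusted p = 0.0213) or with external control scaling (-0.77, adjusted p = 0.0904). In 1:609 and 1:594 SAM3 was at -0.66 ± 0.06 (adjusted p = 0.000148) and -0.54 ± 0.06 (adjusted p = 0.000448) with cdk8-del, under the fold limit. The synthetase gene SAM2 was at -1.03 ± 0.28 in 1:666 (adjusted p = 0.0317), and it was called lower with the block. With the block 278 of 6388 probes were called in either direction there. SAM1, the other synthetase gene, was at -0.64, -0.26 and -0.36. Over 1:713 SAM1 was at -0.64 in 1:609 and -0.51 in 1:594 (adjusted p = 0.00202 and 0.00912), under the fold limit. Against the pool, 3 of the 4 genes were called lower in 1:609 cdk8-del and 3 in 1:594 cdk8-del, where 1.89% and 2% of all probes were. In 1:666 cdk8-del 1 was, where 0.939% of all probes were. MET17, as given above, was about at the pool's level in 1:666 cdk8-del and 1:594 cdk8-del and low in the other strains, and its part in the SAM values was not tested.

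VHT1 belongs with FEN2, a pantothenate carrier gene, to the Dal5 family of vitamin and anion carriers. Of 11 genes of that family or of other vitamin carriers, FEN2 included, 10 had a probe. Of these 10, 0 were called with cdk8-del or over 1:713, where 104 to 253 and 3 to 126 of 6388 probes were. At an unadjusted p under 0.05 there were 4 higher and 2 lower with cdk8-del in 1:666, 3 and 1 in 1:609, and 5 and 2 in 1:594, where 25.8%, 18.9% and 21.4% of all probes passed. Over 1:713 there were 2, 4 and 3 lower in 1:666, 1:609 and 1:594, and 0 higher, where 9.49%, 29.2% and 25.3% of all probes passed. THI73 was at 0.49, 0.36 and 0.84 with cdk8-del. It was called higher in 1:594 with the block, where 177 of 6388 probes were called in either direction. TNA1, the nicotinic acid carrier gene, was at -0.25, -0.18 and -0.16 with cdk8-del. Over 1:713 TNA1 was at -0.72 ± 0.06 in 1:609 (adjusted p = 2.91e-05) and -0.65 ± 0.06 in 1:594 (adjusted p = 7.35e-05), under the fold limit.

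BIO3, BIO4 and BIO5 lie next to each other on chromosome XIV, in the order of the RefSeq table of assembly R64. That table served for gene names and gene order only. Of the 10 genes on either side of the cluster, 5 a side, 6 had a probe. None was called with cdk8-del, where 104 to 253 of 6388 probes were. HOL1, next to BIO5, was at 0.02, -0.09 and -0.03 (SE 0.19) with cdk8-del in 1:666, 1:609 and 1:594. MNT4, next to BIO3, was at 0.04, 0.03 and -0.05 (SE 0.16). All 6 were between -0.42 and 0.18.

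**Figure D5:**
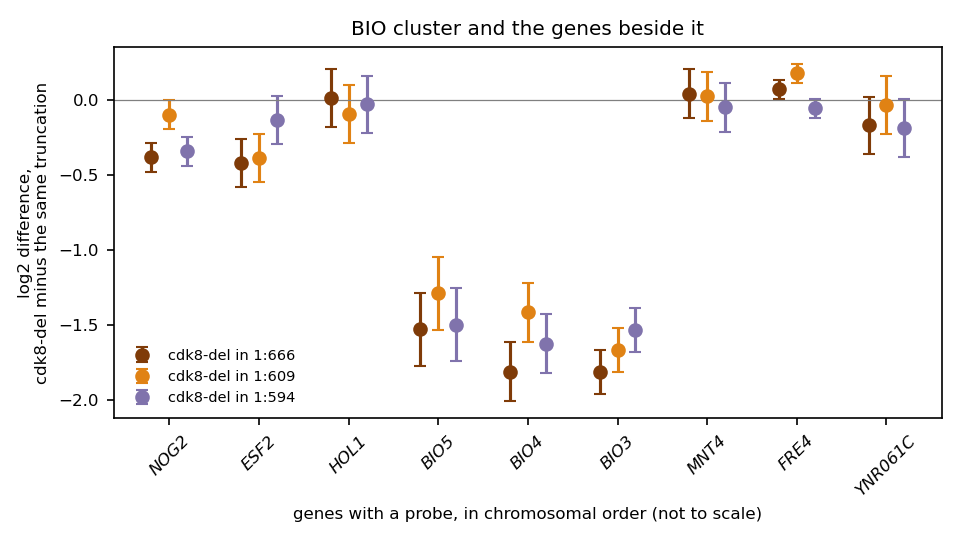
Log2 difference of double mutant minus single mutant (y, bars of 1 SE, n = 2 arrays a strain) for BIO5, BIO4 and BIO3 and the genes beside them that have a probe, in chromosomal order and not to scale (x). The 3 BIO genes lie between -1.82 and -1.29, and their neighbours lie between -0.42 and 0.18.

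BIO2 and VHT1 lie apart on chromosome VII and BPL1 on chromosome IV. Around the cluster and these genes together, 29 of 40 neighbours had a probe and 1 was called with cdk8-del. This was ROM1, the fourth gene from VHT1, which encodes an exchange factor of the Rho1 GTPase. It was called higher in 1:666, where 253 of 6388 probes were called, 208 of them higher. ROM1 had 0.78 and 0.73 in 1:666 cdk8-del, against -0.04 and -0.01 in 1:666, a rise of 0.78 ± 0.09 (adjusted p = 0.000193). It was at 0.51 in both other truncations, under the fold limit, and it was not called under print-tip scaling (0.73), median centring (0.86) or external control scaling (1.12), nor without array a of 1:666 cdk8-del (0.75) or array a of 1:666 (0.76). ZUO1, a ribosome-associated chaperone gene next to BIO2, was at -0.43 ± 0.08 and -0.42 ± 0.08 in 1:666 and 1:609 (adjusted p = 0.00396 and 0.00845), under the fold limit, and at -0.22 ± 0.08 in 1:594. SPT4, beside VHT1, was at 0.25, 0.13 and 0.16. CRD1 and RPO21, on either side of BPL1, were between -0.42 and 0.13.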

How the data were processed

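The authors deposited scanner files with mean spot intensity and median background intensity per channel (per the file headers), and a matrix of log2 ratios normalised to total mRNA per the labels' series text, used here as an alternative. Background was corrected by normexp (offset 50). Log2 ratios were scaled by lowess (span 0.4, 3 iterations) over 12776 gene spots, oriented as strain over reference, and the 2 spots of a probe were averaged. A single model, with 1 mean for each strain, was fitted to the 16 arrays by limma 3.58.1 in R 4.3.3, with Benjamini-Hochberg adjustment over 6388 probes and two-sided tests; the limits 0.01 and 1.7 follow the series text. Median strain signal was 292 to 1058, over backgrounds of 41 to 72. Symbols came from the platform annotation (5326 probes, 5324 matched to RefSeq). With strain means removed, array differences of the letters correlated between all 28 strain pairs (0.60 to 0.91). The letter is also the dye orientation, so a dye effect and a pairing of arrays cannot be told apart. Blocked values are given where calls change. The fit was tested on simulated data.

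The members and gene lists were chosen with earlier results of these data known. Beside the members, the text names every gene of a list called over 1:713 or with cdk8-del, some of up to 4 of the largest differences a list, and all biotin-dependent proteins and regulators with a probe. DUR1,2, VHR2 and SOA1 were not analysed here. Alternatives were print-tip, median and external control scaling, plain subtraction, a background filter, the deposited ratios, the letter block and leaving out each array. Figures were drawn in matplotlib 3.10.9.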

Additional observations from a re-analysis of the deposited data

How the results depend on the processing

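With cdk8-del, the 4 BIO genes and VHT1 were below 0 in all 3 truncations under 23 of 23 alternatives, and BPL1 under 23 in 1:666 and 1:594 and 22 in 1:609, where it was 0.11 with external controls. Scaling on external control spots shifted the typical gene by 0.23, 0.46 and 0.22 with cdk8-del in 1:666, 1:609 and 1:594, and by -0.74 to -0.27 against the pool. Relative to that shift the BIO genes lay between -1.90 and -1.28. Called members with cdk8-del numbered 13 of 18, but 2 with median centring and 1 with external controls, and 10 to 13 without 1 array. The differences of the BIO genes and VHT1 lay between -1.82 and -0.94, between -1.92 and -1.01 with median centring and between -1.67 and -0.57 with external controls. Their medians were -1.50, -1.58 with median centring and -1.30 with external controls, so fewer calls with median centring did not come with smaller differences. Arrays of double mutants and strains with CDK8 did not overlap for 5 members (3.21% of all probes), for 6 with median centring (1.47%), for 6 with deposited ratios (6.31%) and for BIO2, BIO3 and BIO5 with external controls (0.172%). Against the pool, 13 member values were called (10 lower, 3 higher), 3 with median centring, 10 with external controls (10 lower, 0 higher) and 11 to 16 without 1 array. Over 1:713 the count of 0 held under every alternative. List genes called against the pool numbered 27 of 736 gene by strain values (18 lower, 9 higher). They numbered 138 with external controls (135 lower, 3 higher), where the typical gene itself was lower, as given above. With plain subtraction they numbered 42, and 24 to 28 without 1 array. Over 1:713 they numbered 4 of 276, all lower, and 0 with median centring or external controls. They numbered 9 with plain subtraction, 11 with deposited ratios (8 lower, 3 higher) and 9 with the replicate block (6 lower, 3 higher). Without 1 array they numbered 3 to 5. With cdk8-del they numbered 5 of 276 (4 lower, 1 higher), and 2 with external controls (1 lower, 1 higher). They numbered 11 with deposited ratios (5 lower, 6 higher) and 10 with the replicate block (5 lower, 5 higher). With median centring or print-tip scaling they numbered 4 (4 lower, 0 higher in each), and 7 with plain subtraction (4 lower, 3 higher). Without 1 array they numbered 4 to 5. The replicate block removed none of these calls of members. Apart from the block, the shares of all probes called under each alternative are not given here. Nothing is therefore read from the counts of members or list genes called. The cause of these changes in calls was not tested. With 2 arrays a strain, their number limits the precision.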
